A study of Rattus norvegicus with 10 samples.

Results

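Heat shock proteins and HSF1 were followed in the livers of rats given sulfur mustard (SM), a blistering agent that alkylates DNA and protein, with or without MSTF, a plant mixture of total flavonoids (Anemarrhena asphodeloides) and salvianolic acids (Salvia miltiorrhiza). The 10 genes were chosen by name, with earlier results of these data known. They were the cytosolic chaperones Hspa1b, Hspa8, Hspb1, Hsp90aa1, Dnajb1, Hsph1 and Hspa4, the mitochondrial chaperones Hspd1 and Hspe1, and the transcription factor gene Hsf1. A probe was taken when the accession it carries belongs to one of these symbols, which gave 19 probes for 9 of the 10 genes among 13838 genes with a named probe. No probe carried an accession that the tables used here pair with Dnajb1, so it is named without values.

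The arrays were 1-colour Agilent Whole Rat Genome oligo microarrays, 1 per rat, from male Sprague Dawley rats whose age is not given in the sources used here. The 3 control rats received the solvent, propylene glycol, under the skin of the back. The 4 SM rats received a single subcutaneous dose of 3.5 mg/kg SM in that solvent, equal to 0.7 of the LD50. The 3 SM + MSTF rats received the same dose of SM and, 1 h later, 120 mg/kg MSTF by stomach tube. Livers were taken 24 h after SM in all groups. RNA came from whole liver tissue, so fewer cells of a type and less RNA per cell cannot be told apart. All 10 hepatocyte genes of a fixed marker list were well above background on all 10 arrays. The 3 slides held unequal parts of the groups: slide 1 the 3 controls and SM + MSTF replicate 3, slide 2 all 4 SM arrays, and slide 3 SM + MSTF replicates 1 and 2. SM and its slide cannot be told apart.

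Heat shock proteins are molecular chaperones: they hold unfolded proteins, help them to fold and pass those that cannot fold on to degradation. HSF1 is kept inactive in the unstressed cell. When unfolded proteins draw the chaperones away from it, HSF1 forms trimers and binds heat shock elements, runs of the letters GAA and TTC in turn, in front of chaperone genes. The mitochondrial pair HSP60 and HSP10, the products of Hspd1 and Hspe1, form the folding chamber of the mitochondrial matrix and also respond to an unfolded protein response of that organelle.

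Promoter sequences show which of the members carry such an element close to the start. RefSeq windows of assembly GRCr8 were held for 7 of the 10 members, and the 250 bases before the start were searched for GAANNTTC and TTCNNGAA (2 units, each its own reverse complement, so that a match reads on both strands) and for GAANNTTCNNGAA and TTCNNGAANNTTC (3 units, the reverse complements of each other, which also contain matches of the 2-unit forms). At least 1 match of 2 units lay before 6 of the 7 members, against 13.5% of all 33469 windows. A match of 3 units lay before 4 of the 7, against 0.663% of all windows. Of 84 other genes of the chaperone lists used below, 17 had a match of 2 units and 1 a match of 3 units. The window of Hspa1a, the near-identical copy of Hspa1b, held no match. The sequences below are shown because they set the element-bearing members side by side. Capitals mark the matches, and positions count back from -1, the base before the start.
Hspa8, chr8:50080294-50080513, plus strand, bases -220 to -1: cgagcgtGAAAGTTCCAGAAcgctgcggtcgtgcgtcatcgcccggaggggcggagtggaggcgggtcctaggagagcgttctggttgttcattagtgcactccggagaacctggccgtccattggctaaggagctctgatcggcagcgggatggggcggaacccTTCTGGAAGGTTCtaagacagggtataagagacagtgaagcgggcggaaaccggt
Hsph1, chr12:10427258-10427357, plus strand, bases -110 to -11: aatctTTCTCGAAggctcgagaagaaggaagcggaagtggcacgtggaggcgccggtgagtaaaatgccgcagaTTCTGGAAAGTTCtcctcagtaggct
Hspb1, chr12:26432392-26432441, minus strand, bases -140 to -91: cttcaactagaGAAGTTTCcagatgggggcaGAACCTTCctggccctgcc
Hspd1, chr9:64084258-64084287, minus strand, bases -250 to -221: gcggggccTTCCGGAAGGTTCTAGAAccga
Hspe1, chr9:64084257-64084286, plus strand, bases -70 to -41: ctcggTTCTAGAACCTTCCGGAAggccccg
Dnajb1, chr19:41431142-41431181, minus strand, bases -40 to -1: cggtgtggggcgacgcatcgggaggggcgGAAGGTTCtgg

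Hspa8 held 2 separate matches of 3 units, at -213 and -55, and Hsph1 held 1 at -36 with a 2-unit match at -105. Hspd1 and Hspe1 lie head to head on chromosome 9 and read the same 18 bases (chr9:64084262-64084279), a run of 4 units, from opposite strands. Hspb1 held 2 matches of 2 units, at -129 and -109, and Dnajb1 held 1 at -11. The window of Hspa4 held none of these letters. A match is a description of the letters and not a measured binding site. The map of matches shows these positions to scale.

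**Figure D1:**
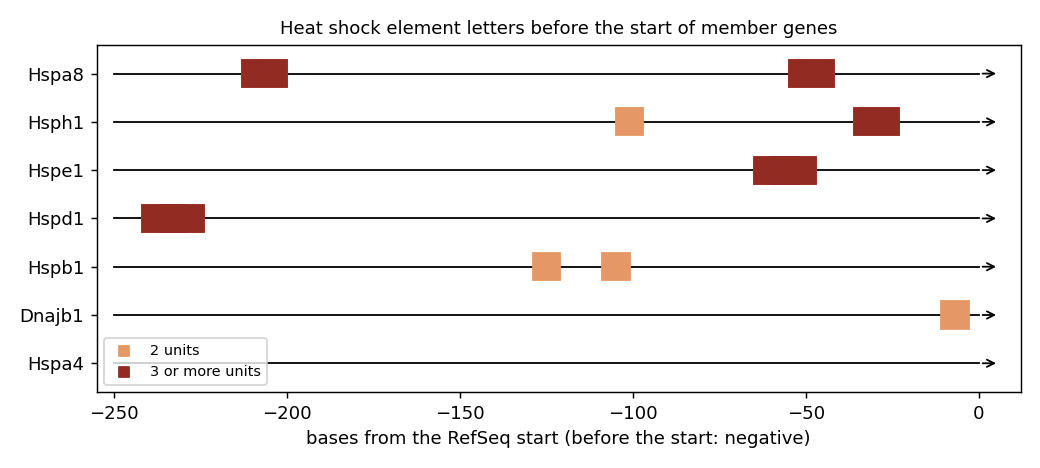
Matches of heat shock element letters in the 250 bases before the RefSeq start of 7 members; the horizontal axis is the distance from the start in bases, light boxes are matches of 2 units and dark boxes matches of 3 or more. Hspa8, Hsph1, Hspe1 and Hspd1 hold dark boxes, Hspb1 and Dnajb1 light boxes only, and Hspa4 none.

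All 19 member probes were well above background on all 10 arrays and entered the test, so the filter on dim probes removed no member with a probe. Values are log2 of the quantile-normalised signal, and a fold change is a difference of group means on that scale (limma, 10 arrays, Benjamini-Hochberg adjustment over 22991 probes). A probe was called at an adjusted p under 0.05 with a change of at least 1.5-fold. Levels are compared between arrays for 1 probe, not between probes. Values with ± are the mean and SD of 3 controls, 4 SM or 3 SM + MSTF arrays.

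The inducible HSP70 gene Hspa1b, which makes the classical HSF1-driven chaperone of the stressed cell, had the largest difference of the 19 probes between SM and control livers. Its signal was 7.98, 7.42 and 6.31 in the controls, 5.24, 4.61, 4.72 and 6.14 in the SM livers, and 5.35, 7.07 and 5.91 in the SM + MSTF livers. Every SM liver lay below every control, and the SM + MSTF livers overlapped with both groups. The group means were 7.24 ± 0.85, 5.18 ± 0.70 and 6.11 ± 0.88. The SM minus control difference was -2.06 (95% interval -3.24 to -0.88), a 4.16-fold lower signal that missed the threshold with an adjusted p of 0.0779 (limma). With normexp background correction it was -1.01 (adjusted p = 0.096), the smallest of 19 other settings. In SM + MSTF the signal was between the other groups, with -1.13 against control (adjusted p = 0.561) and 0.93 against SM (adjusted p = 0.403), and neither passed. The SD of each group was above 0.7, so the interval of the difference between SM + MSTF and SM ran from -0.25 to 2.11. The probe was named from the study's supplementary annotation, and its near-identical copy Hspa1a could share its signal. The Hspa1a probe was well above background on 1 control, 0 SM and 1 SM + MSTF arrays and was not tested.

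Hspa8, the constitutive HSC70 that folds new proteins and uncoats clathrin vesicles in the resting cell, had the only called probes among the members. Probe A_44_P396546 read 7.69, 7.82 and 7.95 in the controls, 6.39, 6.64, 6.49 and 7.24 in the SM livers, and 7.87, 7.61 and 8.10 in the SM + MSTF livers. All 4 SM livers lay below all livers of the other groups, and SM replicate 4 was the nearest to them. The signal fell by 1.13 in SM against control (SE 0.20, adjusted p = 0.025), a 2.19-fold fall, and it was 1.17 higher in SM + MSTF than in SM (SE 0.20, adjusted p = 0.0256). Against control the SM + MSTF livers differed by 0.03 (95% interval -0.45 to 0.52). Of all tested probes, 2.41% were called in SM versus control and 1.43% were called lower. In that comparison 1 of 19 member probes was called, and it was lower.

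The other 3 Hspa8 probes gave smaller SM minus control differences than A_44_P396546. Probe A_43_P12417 read 12.52, 12.59 and 12.72 in the controls, 11.86, 11.93, 12.24 and 12.45 in the SM livers, and 13.19, 12.75 and 12.87 in the SM + MSTF livers. Probe A_44_P424367 read 11.33, 11.45 and 11.51 in the controls, 10.71, 10.80, 10.88 and 11.34 in the SM livers, and 12.11, 11.79 and 11.72 in the SM + MSTF livers. Probe A_44_P452492 read 13.68, 13.71 and 13.80 in the controls, 13.03, 12.99, 13.44 and 13.62 in the SM livers, and 14.11, 13.84 and 14.06 in the SM + MSTF livers. On each of these probes the SM + MSTF livers were the highest of the 10, and the SM livers were below the controls except SM replicate 4 on A_44_P424367. The SM minus control differences were -0.49, -0.49 and -0.46 with adjusted p of 0.162, 0.156 and 0.18, and none was called. The SM + MSTF minus SM differences were 0.82, 0.94 and 0.73 with adjusted p of 0.0457, 0.0247 and 0.0627, so the first and second were called. SM + MSTF minus control was 0.33, 0.45 and 0.27, with adjusted p of 0.475 to 0.642 and no call. With A_44_P396546, 3 of the 4 Hspa8 probes and 3 of 19 member probes were called in SM + MSTF versus SM, all higher, against 1.26% of all tested probes called and 0.322% called higher. The 4 probes target 1 gene on the same arrays, so they are not replicates of one another. SM is the shared group of both comparisons, so a low SM value enters both.

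**Figure D2:**
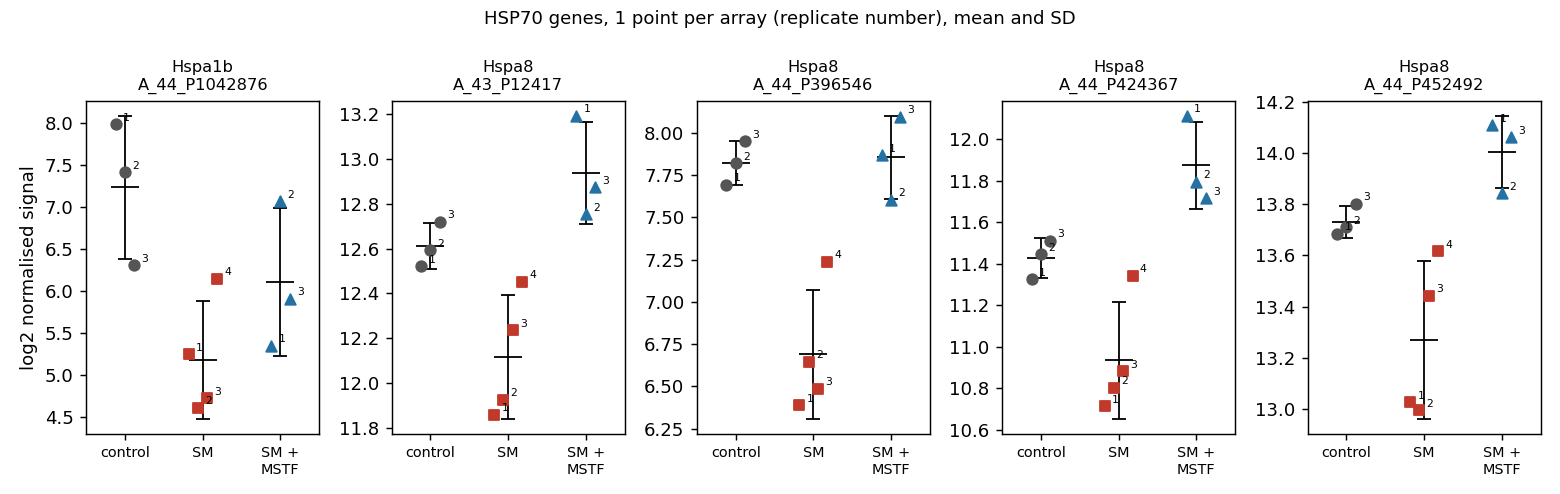
Log2 normalised signal of the Hspa1b probe and the 4 Hspa8 probes on each array (points, numbered by replicate) with group mean and SD (bars); each panel has its own vertical axis. The SM livers are the lowest group in each panel and SM replicate 4 is the SM array closest to the controls; on 3 Hspa8 probes all SM + MSTF livers are above all controls.

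These Hspa8 calls were lost in several settings. With the slide as a random block no Hspa8 probe was called. On A_44_P396546 the SM minus control difference was then -1.11 (adjusted p = 0.0819), and the SM + MSTF minus SM differences of A_44_P396546, A_44_P424367 and A_43_P12417 were 1.18, 0.93 and 0.82 (adjusted p = 0.0652, 0.0655 and 0.114). In SM versus control, the call of A_44_P396546 was lost when any control or SM array but SM replicate 4 was left out (differences -1.03 to -1.20, adjusted p 0.0527 to 0.0949), and without SM replicate 4 the number called was 1. Leaving out 1 array in SM + MSTF versus SM gave 0 to 5 member probes called. It was 0 without SM replicate 1, 2 or 3 or SM + MSTF replicate 1, 1 without SM + MSTF replicate 2 or 3, and 5 without SM replicate 4. Within slide 1, SM + MSTF replicate 3 was 0.26 to 0.33 above the control mean on the 4 Hspa8 probes and 1.33 below it on Hspa1b. The paper also measured Hspa8 by quantitative real-time PCR and reports changes of the same kind as on its arrays. The PCR values were not used here.

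The marker lists of other liver cells differed in direction, and Klrd1, a receptor gene of natural killer cells, was their one called gene. Of 9 macrophage and Kupffer cell genes tested, all 9 had lower fitted values in SM than in control (median -0.15) and all 9 had higher values in SM + MSTF than in SM (median 0.41), with no call. Their summed linear signal was 108133 to 138726 in control, 70611 to 133148 in SM and 114159 to 144515 in SM + MSTF, and none of the 9 was at background on all arrays. Of 8 T and NK cell genes tested, all 8 were lower in SM (median -0.33) and 7 were higher in SM + MSTF than in SM (median 0.38), and Klrd1 was called in both (-1.22, adjusted p = 0.0277, and 1.15, adjusted p = 0.0455). The summed signal of that list was 1680 to 1966 in control, 981 to 2280 in SM and 1286 to 2600 in SM + MSTF, and 1 of its 10 genes was well above background on no array. The 6 erythroid genes lay on the other side, all higher in SM (median 0.63) and 5 lower in SM + MSTF than in SM (median -0.20), with a summed signal of 78112 to 166645 in control, 68065 to 210228 in SM and 79651 to 177872 in SM + MSTF. Both neutrophil genes tested were higher in SM (median 0.68), and 3 of the 7 with a probe were well above background on no array. Of 7 stellate cell and matrix genes 5 were lower in SM (median -0.20) and 6 lower in SM + MSTF than in SM (median -0.05). The 4 endothelial genes had medians of -0.0045 and -0.084, and the 10 hepatocyte genes had medians of -0.0043 and -0.024. The B cell, cholangiocyte and muscle lists had 2, 2 and 1 genes tested, with medians of -0.98, 0.22 and -0.36 in SM. The 2 B cell genes went in opposite directions, at -2.18 and 0.22, with no call, so their median describes neither. The part of these cells in the Hspa8 and Hspa1b values was not tested.

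Hspb1, the small heat shock protein HSP27 that binds unfolding proteins without ATP and steadies actin filaments, lay on the other side of the controls. It read 9.34, 9.26 and 9.22 in the controls, 10.25, 10.16, 9.58 and 10.20 in the SM livers, and 9.22, 9.59 and 10.34 in the SM + MSTF livers. All SM livers were above all controls, while the SM + MSTF livers ran from below the lowest control to above the highest SM liver. The difference was 0.78 in SM versus control (95% interval 0.21 to 1.34, adjusted p = 0.153), 0.44 in SM + MSTF versus control (adjusted p = 0.63) and -0.33 between SM + MSTF and SM (adjusted p = 0.521), and none was called. SM + MSTF replicate 3, which shared a slide with the controls, was 1.06 above their mean.

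Hsp90aa1 encodes the inducible cytosolic HSP90, which matures kinases and steroid receptors and holds HSF1 inactive. Its 4 probes were 0.15, 0.16, 0.18 and 0.53 higher in SM than in control, with adjusted p of 0.157 to 0.697. The last of these, A_44_P299870, read 12.12, 11.94 and 11.78 in the controls, 12.26, 12.47, 12.92 and 12.26 in the SM livers, and 12.04, 11.69 and 11.89 in the SM + MSTF livers. On that probe the SM livers were above all 6 others, and SM + MSTF minus SM was -0.60 (adjusted p = 0.15). On the remaining 3 probes the groups overlapped in SM versus control, and SM + MSTF minus SM was -0.32 to -0.03. No Hsp90aa1 probe was called in any comparison.

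Hspa4 and Hsph1 encode HSP110-type chaperones, nucleotide exchange factors that reset HSP70 after each cycle. The 2 Hspa4 probes were lower than control in SM, by -0.25 (95% interval -0.47 to -0.03) and -0.34 (-0.58 to -0.10), and in SM + MSTF, by -0.24 (-0.48 to -0.01) and -0.39 (-0.64 to -0.13). On A_44_P476830 the controls read 9.06, 9.19 and 8.95, the SM livers 8.58, 8.63, 8.87 and 8.83, and the SM + MSTF livers 8.68, 8.61 and 8.75. All 7 livers given SM were below all 3 controls on both probes. The adjusted p was 0.144 to 0.51, so none was called, and the SM + MSTF minus SM differences were 0.01 and -0.05. Hsph1, whose window holds a 3-unit match like that of Hspa8, differed by -0.06 in SM versus control (95% interval -0.45 to 0.33) and by 0.17 in SM + MSTF versus SM (-0.23 to 0.56). The Hsph1 groups overlapped in all 3 comparisons.

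No probe of the mitochondrial chaperones was called in SM versus control. The 4 Hspd1 probes (A_42_P651962, A_44_P426558, A_44_P535742 and A_44_P846589) differed by 0.13, 0.00, 0.04 and 0.32 in SM versus control, and Hspe1 by 0.14, with adjusted p of 0.295 to 0.997. The 95% intervals of these 5 probes reached no lower than -0.36, and those of the 4 Hspa8 probes reached up to -0.68 on A_44_P396546 and up to -0.13, -0.13 and -0.10 on the rest. The difference between the genes was not tested. A_44_P846589 read 11.71, 11.65 and 11.59 in the controls, 12.06, 12.11, 12.09 and 11.61 in the SM livers, and 11.57, 11.53 and 11.26 in the SM + MSTF livers. There 3 SM livers were above all others and SM replicate 4 lay among the controls, and SM + MSTF minus SM was -0.52 (adjusted p = 0.126); without SM replicate 4 it was -0.63 and was called (adjusted p = 0.0389). Hspe1 read 15.48, 15.46 and 15.51 in the controls, 15.41, 15.78, 15.81 and 15.50 in the SM livers, and 15.33, 15.46 and 15.29 in the SM + MSTF livers. Its groups overlapped in all 3 comparisons.

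Hsf1 itself read 9.24, 9.19 and 9.13 in the controls, 9.56, 9.32, 9.43 and 9.45 in the SM livers, and 9.44, 9.60 and 9.44 in the SM + MSTF livers. All 7 livers given SM were above all 3 controls, by 0.25 in SM (95% interval 0.05 to 0.45, adjusted p = 0.199) and 0.31 in SM + MSTF (0.09 to 0.52, adjusted p = 0.424). Neither difference was called, and both were under the fold minimum. HSF1 is controlled mainly through its protein, which the arrays do not measure.

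**Figure D3:**
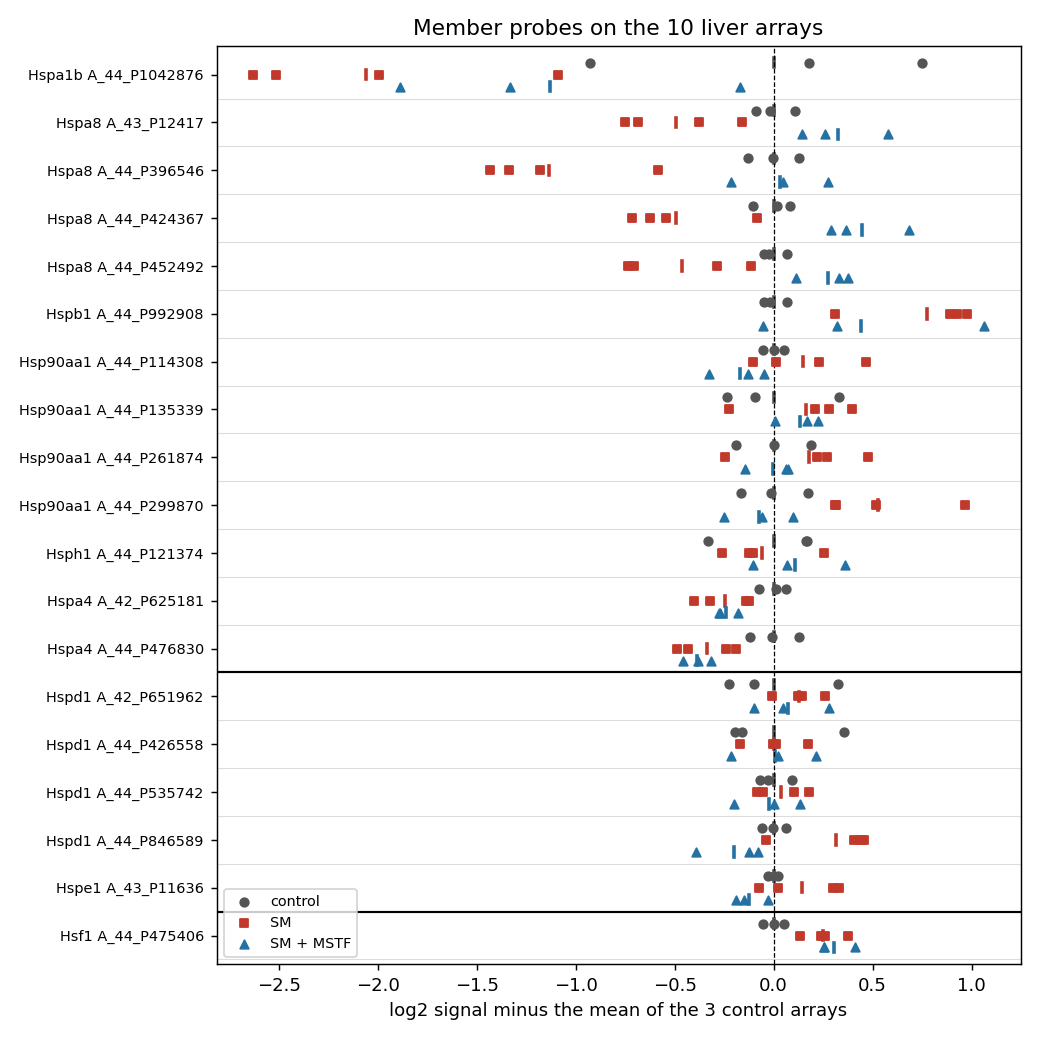
Log2 signal of the 19 member probes on the 10 arrays, drawn as the difference from the mean of the 3 controls (points: arrays; short bars: group means; black lines divide cytosolic chaperones, mitochondrial chaperones and Hsf1). In SM, Hspa1b and Hspa8 lie left of the controls, except SM replicate 4 on Hspa8 A_44_P424367, and Hspb1 and Hsf1 lie right. The SM means of the 5 mitochondrial probes lie between 0.00 and 0.32, the last on Hspd1 A_44_P846589.

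Over the members, SM versus control gave 8 probes below and 11 above control, with a median of 0.04 beside 0.03 over all tested probes. The groups did not overlap on 9 of 19 member probes, 6 lower and 3 higher, against 18.0% of all tested probes. An unadjusted p under 0.05 was reached by 11 of 19 members against 16.4% of all tested probes. Between SM + MSTF and control, 0 of 19 members were called, 4 had an unadjusted p under 0.05 (9.54% of all tested probes), and the groups did not overlap on 7 (15.4% of all). The limma call there covered 0% of all tested probes, and the methods' t-test called 0 members as well. For SM + MSTF versus SM, 8 of 19 had an unadjusted p under 0.05 (15.9% of all) and 6 did not overlap (14.7% of all). These counts hold several probes of 1 gene, so a gene with 4 probes weighs more than a gene with a single probe. The members were also chosen with results of these data known, and the study lists Hspa1b, Hspa8 and Hspb1 as altered by SM. The counts are therefore a description beside the shares of all probes and not a test of the members.

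**Figure D4:**
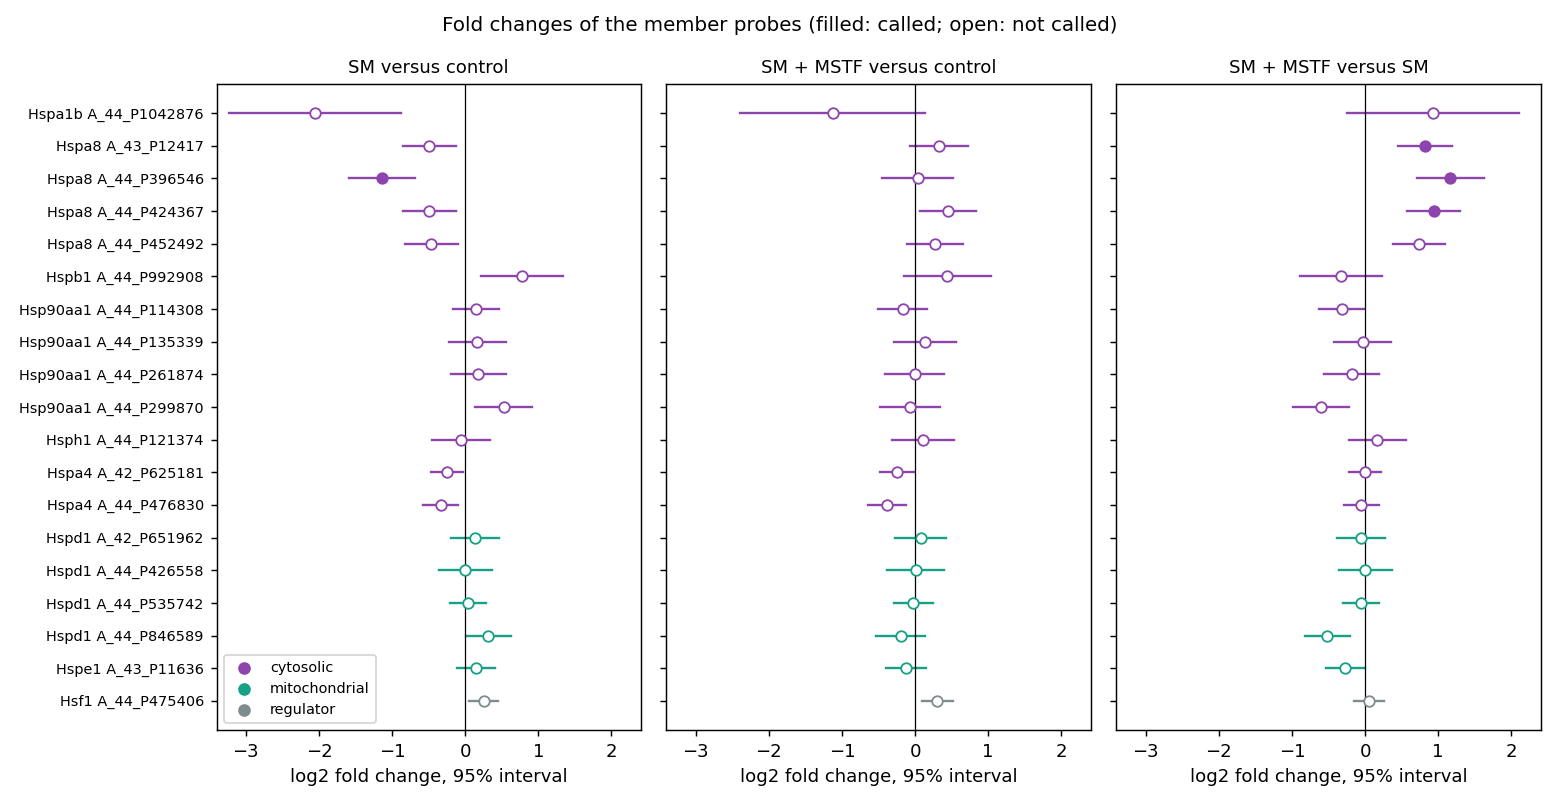
Log2 fold changes of the 19 member probes with 95% intervals from the limma fit in the 3 comparisons; filled points passed the call and open points did not. The filled points are 1 Hspa8 probe in SM versus control and 3 Hspa8 probes in SM + MSTF versus SM.

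The contrast of compartments was taken as 1 value per array: the mean over the 6 cytosolic members with a probe minus the mean over Hspd1 and Hspe1, with the probes of a gene averaged first and the control mean set to 0. It read 0.19, 0.02 and -0.21 in the controls, -0.43, -0.71, -0.62 and -0.11 in the SM livers, and -0.16, -0.12 and 0.19 in the SM + MSTF livers. SM replicates 1, 2 and 3 were below all other arrays and SM replicate 4 lay among the controls. The group values were 0 ± 0.20, -0.47 ± 0.27 and -0.03 ± 0.19 (SD), with the cytosolic mean at -0.34 and the mitochondrial mean at 0.13 in SM. With normexp background correction the SM value was -0.27. These values are given without a test, since the members were chosen with results of these data known. Much of the difference came from 1 gene: without Hspa1b the SM minus control value was -0.13, and SM + MSTF minus SM went from 0.44 to 0.30. The fitted differences of the cytosolic members ran in both directions in SM, from -2.06 for Hspa1b to 0.78 for Hspb1, whereas the 5 mitochondrial probes lay between 0.00 and 0.32.

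The wider chaperone network was read through fixed lists, with the probe of highest mean signal for each gene. Leaving out the members, 83 genes of 10 chaperone and heat shock lists were tested. The probe of Hspa12a was well above background on the 4 SM arrays alone, so it gave no measured fold and is left out of the counts. Of the 82 that remained, 59 were higher and 23 lower in SM versus control with a median of 0.07 and 0 calls, and 26 were higher and 56 lower in SM + MSTF versus SM with a median of -0.08 and 1 call, Hspb3. The median was 0.04 with 0 calls in SM + MSTF versus control. The calls of all tested probes in these comparisons are given above (2.41% and 1.26%).

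The HSP70 and HSP110 list held 3 such genes, at -0.47 to 0.02 in SM versus control with a median of -0.11. Hspa4l, an HSP110 relative of Hspa4, was the lowest of them (adjusted p = 0.496). Of 9 HSP70 cofactors 6 were higher and 3 lower (median 0.09). Bag3, an HSF1 target that carries HSP70 clients to autophagy, was lower in SM (-0.55, adjusted p = 0.122) and 0.67 higher in SM + MSTF than in SM (adjusted p = 0.0931). Its 4 SM livers read 10.94, 11.37, 11.03 and 11.20, below the controls at 11.58, 11.68 and 11.79 and below the SM + MSTF livers at 11.85, 12.11 and 11.45. Bag3 was not called in any comparison.

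The HSP90 list was higher in SM for 7 of 9 genes (median 0.18) and lower in SM + MSTF than in SM for 7 of 9 (median -0.15), with no call. The 3 probes of Hsp90ab1, the constitutive HSP90, disagreed in SM versus control, at 0.44, 0.26 and -0.36 from the brightest to the dimmest (adjusted p = 0.426, 0.399 and 0.327), and on the dimmest all SM livers were below all controls. The kinase cochaperone gene Cdc37 was at 0.33 (adjusted p = 0.1). The steroid receptor cochaperone Fkbp4 was at 0.31 in SM and -0.49 in SM + MSTF versus SM on its brightest probe, with adjusted p of 0.43 and 0.235. J proteins, which hand clients to HSP70, had a median of 0.05 over 11 genes in SM versus control. Dnajb5, Dnajb6 and Dnajc5 were the farthest from 0 (0.33, 0.32 and 0.28), a second Dnajb6 probe was at -0.18, and none of the list was called.

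Of the chaperone list genes outside the members, the 1 called in SM + MSTF versus SM was a small heat shock protein gene. Hspb3, a small heat shock protein best known from muscle, read 6.21, 5.90 and 6.19 in the controls, 6.67, 6.85, 7.02 and 6.38 in the SM livers, and 4.72, 5.87 and 5.33 in the SM + MSTF livers. All SM livers were above all controls, all SM + MSTF livers below them, and SM + MSTF minus SM was -1.42 (adjusted p = 0.0274). Against control SM was 0.63 higher (adjusted p = 0.245). Of 6 skeletal muscle marker genes 3 were well above background on no array.

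The cytosolic chaperonin TRiC, which folds actin and tubulin, had a median of 0.03 over 8 genes in SM versus control. The probes of its subunit gene Cct6a disagreed. The brighter, A_44_P322518, was at 0.03, while A_44_P338137 read 5.66, 5.66 and 6.004 in the controls, 4.31, 5.08, 4.76 and 4.54 in the SM livers and 5.19, 5.01 and 5.82 in the SM + MSTF livers. That probe fell by 1.10 in SM versus control and was called (adjusted p = 0.0365). The 3 prefoldin genes, whose products deliver clients to TRiC, were at -0.06 to 0.31.

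All 16 tested mitochondrial chaperones and proteases, members included, lay between -0.27 and 0.19 in SM versus control and between -0.31 and 0.06 in SM + MSTF versus SM, with no call. Hspa9 (mitochondrial HSP70) and Trap1 (mitochondrial HSP90) were at 0.18 and 0.15 in SM versus control. The nucleotide exchange factors Grpel1 and Grpel2 were at 0.07 and 0.03, the J proteins Dnaja3, Dnajc19 and Hscb at 0.11, -0.04 and 0.07, and the disaggregase Clpb at -0.06. The proteases Lonp1, Htra2, Yme1l1, Afg3l2 and Spg7 were at 0.05, 0.06, -0.03, 0.19 and 0.04. By the brightest probes, Timm44, which tethers mitochondrial HSP70 to the import pore, was the farthest from 0 at -0.27. Its probe was well above background on 9 of 10 arrays. It read 6.31, 4.46 and 4.55 in the controls and 4.78, 5.13, 4.73 and 4.70 in the SM livers. The negative sign rests on control replicate 1, since all SM livers were above the remaining controls.

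Chaperones of the endoplasmic reticulum were higher in SM than in control for 13 of 15 genes (median 0.14) and lower in SM + MSTF than in SM for 14 of 15 (median -0.20), with no call. The HSP90 of this compartment, Hsp90b1, and the disulfide isomerase Pdia4 were at 0.48 and 0.48 in SM (adjusted p = 0.232 and 0.202). Creld2 was at 0.34, and Hspa5 (BiP), the HSP70 of the compartment, at 0.12. Dnajb9 probes A_44_P264777, the brighter, and A_44_P127597 disagreed in SM versus control, at 0.01 and -0.46. On the second all SM livers were below all controls. In SM + MSTF versus SM they were at 0.53 and 0.79, and neither was called in any comparison. Among heat shock factors and their regulators, the 2 Hsf2 probes were at -0.07 and 0.19 and Hsf4 at 0.40 (adjusted p = 0.249). Ier5, which aids HSF1, was well above background on 1 control, 2 SM and 3 SM + MSTF arrays, and no fold is given. The cold-induced RNA-binding protein genes Cirbp and Rbm3, which rise when body temperature falls, were at 0.24 and -0.14 in SM versus control (adjusted p = 0.612 and 0.789), and SM + MSTF minus SM was -0.25 and 0.61 (adjusted p = 0.55 and 0.205).

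**Figure D5:**
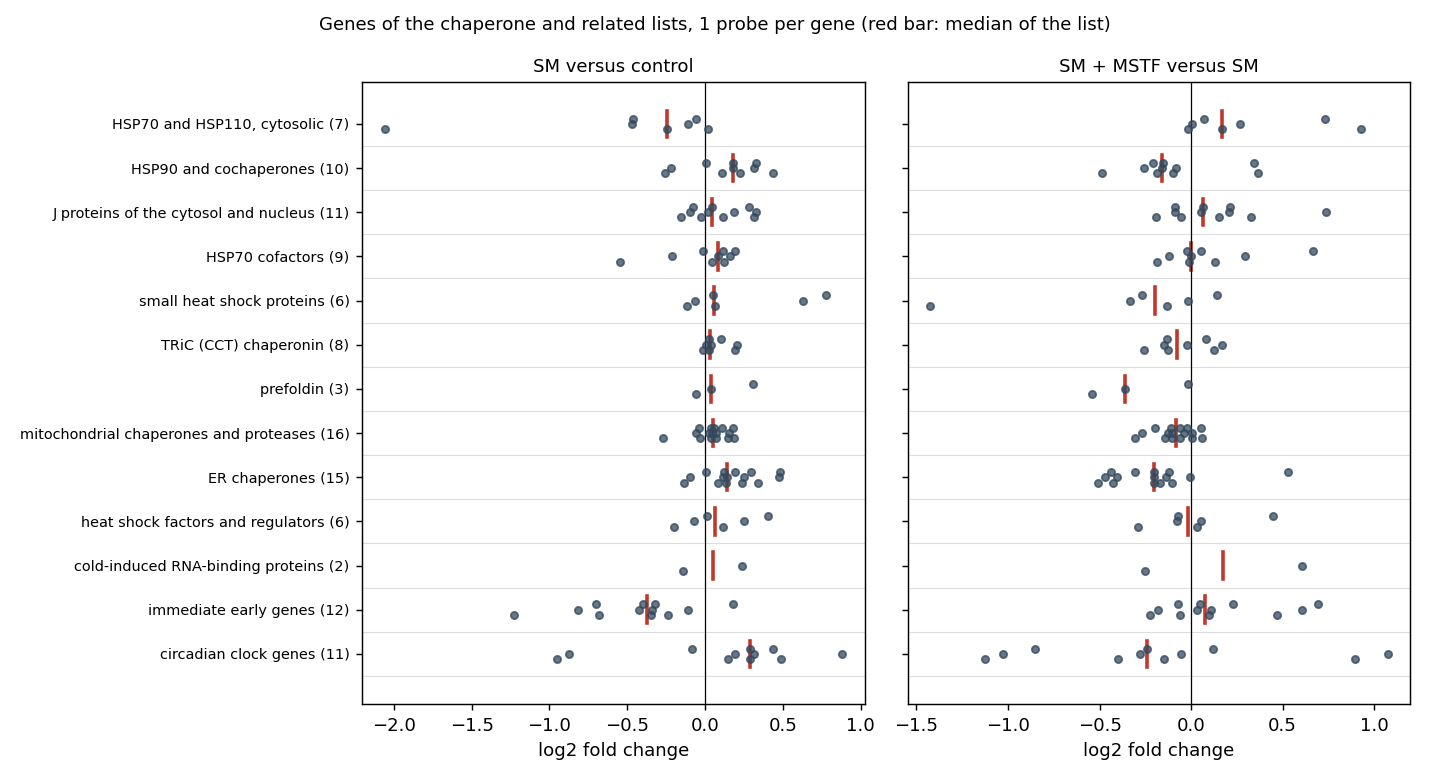
Log2 fold changes of the genes of each fixed list (number of genes in brackets, members included and Hspa12a left out), 1 probe per gene, in SM versus control (left) and SM + MSTF versus SM (right); red bars are list medians. In the left panel the mitochondrial genes lie between -0.27 and 0.19, and the lowest of them, Timm44, rests on control replicate 1. The HSP70 and HSP110 list holds Hspa1b at -2.06 there, and 11 of 12 immediate early genes lie left of 0.

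Immediate early genes and clock genes, both known to share stimuli with the inducible HSP70 genes, were followed beside the chaperones. Of 12 immediate early genes tested, 11 were lower in SM than in control and 11 were lower in SM + MSTF than in control, with medians of -0.38 and -0.30 and no call. The mRNA decay factor Zfp36 was at -1.23 (adjusted p = 0.255), Fos at -0.82 and Atf3 at -0.70 in SM. Of 11 clock genes tested, 1 was called. Nr1d1 (REV-ERBα), the haem-binding repressor of the clock, read 7.89, 7.92 and 7.17 in the controls, 6.90, 6.73, 6.55 and 6.94 in the SM livers, and 7.72, 7.75 and 8.09 in the SM + MSTF livers. Like Hspa8 on A_44_P396546, it was lower in all SM livers than in all others, with -0.88 from control to SM (adjusted p = 0.0471) and 1.07 from SM to SM + MSTF (adjusted p = 0.0317). Its paralog Nr1d2, well above background on 3 of the 4 SM arrays, was at -0.95 and 0.90 (adjusted p = 0.103 and 0.161), and the repressor gene Cry1 at 0.88 and -1.12 (adjusted p = 0.13 and 0.0882). The part of the clock in the member values was not tested.

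The genes whose log2 signal followed the Hspa1b probe most closely over the 10 arrays, members left out, were Klf4 (Pearson r = 0.893), Tpra1 (0.892), Limd2 (0.878), Brox (0.875) and Cytip (0.873). They had the highest r among 11780 probes compared, and none was called in any comparison. Klf4, a transcription factor of the stress and differentiation response, read 8.28, 8.46 and 8.32 in the controls, 7.90, 7.59, 7.72 and 8.13 in the SM livers, and 7.94, 8.29 and 8.18 in the SM + MSTF livers. Among the members, r with Hspa1b was 0.38 to 0.63 for the 4 Hspa8 probes, -0.46 for Hspb1 and -0.63 to -0.49 for the 4 Hsp90aa1 probes. These values are descriptions over 10 arrays that share the group structure and the slides.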

How the data were processed

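Liver RNA of 10 rats was measured on 1-colour Agilent arrays. The authors scanned the arrays and deposited, per the file headers, a background-subtracted intensity for each spot from Feature Extraction 10.7, with flags for spots that stand above background, saturate or lack uniformity. A table of log2 values, quantile normalized by the authors, was used as an alternative. Here control spots and 0 to 4 non-uniform spots per array were dropped, and log2 signals of each probe were averaged after quantile normalization (R 4.3.3, limma 3.58.1). Of 41012 probes, 22991 were tested: those with 2 or more values in each group that stood well above background throughout 1 or more groups. Per array, 51.9% to 61.4% of probes were well above background, no spot was saturated, and precision is limited by how many arrays there were.

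All 3 groups entered 1 limma fit (lmFit, eBayes) with Benjamini-Hochberg adjustment. Names came through accessions from RefSeq tables (17512 probes; 23499 unnamed), and Hspa1b through the study's supplementary annotation. Groups came from the sample labels. Members and lists were chosen with earlier results of these data known. Besides the members, list genes with a called probe were named, with at most 3 more per list by absolute SM versus control difference. All mitochondrial chaperones, Cirbp and Rbm3, and the 5 genes most like Hspa1b were also named. Hspa5, Hsf2 and Dnajb9 were added after their values were seen. The fit was tested on simulated data. Alternatives covered normalization, background, the filter, the test, covariates and arrays left out.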

Additional observations from a re-analysis of the deposited data

Results flagged for a closer look

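In the 4 SM livers, the array farthest from the others was compared with Dixon's 95% critical value for each of the 19 member probes, and 2 passed; chance flags about 1 in 20. Hspb1 read 9.584 in SM replicate 3, below its nearest neighbour at 10.16, with a gap of 0.873 of the range, and this array was still above all 3 controls. Hspd1 probe A_44_P846589 read 11.61 in SM replicate 4, below its nearest neighbour at 12.06, with a gap of 0.894 of the range, and this array lay among the controls. The other 3 Hspd1 probes did not set SM replicate 4 apart. SM replicate 4 was also the SM array nearest to the controls on Hspa1b and on the 4 Hspa8 probes, where the gap was 0.277 to 0.734 of the range.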

How the results depend on the processing

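The number of member probes called in SM versus control (1) was 0 with no filter on dim probes, 0 with the slide as a random block, 0 by the methods' t-test after Benjamini-Hochberg and 3 by that t-test at an unadjusted p, which added Hspa1b and Hspb1, and was 0 to 1 when arrays were left out in turn. In SM + MSTF versus SM the number (3) was 1 with normexp, 1 with no filter, 0 with only the 7 arrays of both groups, 5 by the t-test unadjusted and 0 after adjustment, 0 with the slide as a random block, and 0 to 5 when arrays were left out. In SM + MSTF versus control it was 0 in all 19 settings. A fixed slide block could be fitted only for SM + MSTF versus control. With the replicate number as a block (replicate block), SM versus control gave 1 called probe, SM + MSTF versus SM gave 1 (Hspa8 A_43_P12417 and A_44_P424367 were then at adjusted p 0.0698 and 0.0502), and the remaining comparison gave 0. Same-numbered arrays deviated together (r over 0.1) in 3 of 9 pairs, and arrays of different numbers in 6 of 24. The median r was 0.0686 for same-numbered pairs and -0.0385 for the 24 other pairs. The ranges overlapped (-0.0993 to 0.169 against -0.232 to 0.181), and the numbers were not taken as pairs.

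The cytosolic minus mitochondrial value in SM versus control (-0.47) was -0.13 without Hspa1b, -0.27 with normexp and -0.59 to -0.38 when arrays were left out; in SM + MSTF versus SM (0.44) it was 0.33 to 0.56, and in SM + MSTF versus control (-0.03) it was -0.14 to 0.06, when arrays were left out. Hspa1b in SM versus control ranged from -2.52 to -1.01 over 19 settings and Hspa8 A_44_P396546 from -1.32 to -0.70. Of 1083 recomputed probe values no called value changed direction. Values close to 0 that changed sign moved by less than 1 SE. Hspd1 A_44_P426558 was -0.00364 in SM versus control with the deposited values, and -0.0301 with 75th percentile scaling and -0.0311 with normexp in SM + MSTF versus SM. Hsp90aa1 A_44_P261874 in SM + MSTF versus control was 0.00642 with 75th percentile scaling, 0.0074 with the deposited values, 0.00664 with the slide as a random block and 0.072 as a fixed block. Hspa4 A_42_P625181 was -0.0188 with the replicate block in SM + MSTF versus SM. When arrays were left out, signs changed in SM versus control for Hsph1 (-0.226 to 0.0253), Hspd1 A_44_P426558 (-0.0959 to 0.181) and Hspd1 A_44_P535742 (-0.0127 to 0.0822). Between SM + MSTF and control they changed for Hspa8 A_44_P396546 (-0.0856 to 0.16), Hsp90aa1 A_44_P299870 (-0.156 to 0.0187) and A_44_P261874 (-0.0996 to 0.0902), Hsph1 (-0.0579 to 0.216), and Hspd1 A_42_P651962 (-0.0358 to 0.237), A_44_P426558 (-0.0966 to 0.186) and A_44_P535742 (-0.1 to 0.0662). Signs changed between SM + MSTF and SM for Hspa4 A_42_P625181 (-0.0464 to 0.0463), Hsp90aa1 A_44_P135339 (-0.161 to 0.0465), and Hspd1 A_44_P426558 (-0.0985 to 0.115), A_42_P651962 (-0.156 to 0.0322) and A_44_P535742 (-0.135 to 0.031). The cause was not tested.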
